A study of Mus musculus with 189 samples.

Results

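Oxidative phosphorylation genes encode the protein complexes of the inner mitochondrial membrane that oxidise NADH and succinate and make ATP. The genes described here were the protein-coding genes of the count table whose symbols begin with Nduf (complex I and its assembly factors), Sdha to Sdhd (complex II), Uqcr (complex III), Cox4 to Cox8 (complex IV) or Atp5 (complex V, the ATP synthase), together with the protein-coding genes of the mitochondrial genome, whose symbols begin with mt-. The symbol rule found 93 nuclear and 13 mitochondrially encoded genes, 106 of the 46078 gene rows, and no measured value was used to choose them. Ndufa4 and Ndufa4l2 were described with complex IV, and the 8 Ndufaf genes apart from the subunits.

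Complexes I, III and IV pump protons as electrons pass from NADH or succinate to oxygen, and complex V uses the resulting gradient to make ATP. Complexes I, III, IV and V join subunits from both genomes, whereas complex II is wholly nuclear. Mast cells are long-lived tissue cells that store proteases, histamine and proteoglycan in granules.

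The cells were washed from the peritoneum of C57BL/6 females, 4 mice in all, and each was sequenced on its own after Smart-seq2-type poly(A) amplification. Mature mast cells (94 labelled) were sorted as live, lineage-negative cells with c-Kit and FcεRI on the surface, low integrin β7 and high side scatter. Basophil-mast cell progenitors (BMCPs, 95 labelled) came from the same c-Kit and FcεRI gate, with integrin β7 high and side scatter low. No treatment or genetic change is labelled for either group, and the age of the mice is not labelled.

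After 2 BMCPs with under 100000 endogenous reads were left out, 94 mature cells held 561600 to 2152221 reads and 93 BMCPs held 344022 to 2091665. Cells were not tied to mice, so each group was a single pooled sample. Every difference below is therefore a ratio of 2 pools without a replicate check or a test, and intervals cover counting error only. Levels are in CPM, a gene's reads scaled to 1000000 endogenous reads of the pool, and ratios are log2 of mature CPM + 1 over BMCP CPM + 1, so positive values are higher in mature cells. Across the 10556 genes at 5 CPM or more in either group the median ratio was -0.25. The 10 mast cell granule genes took a median of 28.2% of reads in a mature cell and 17.03% in a BMCP. With totals taken without the granule genes the median ratio of all genes was -0.04. Scaling by the ERCC spike-in RNA moved the median ratio of the same 10556 genes to 0.63. Scaling by trimmed means of M values (TMM) moved it to -0.01. Ratios are therefore also read against the median of all genes. Of 7 mast cell markers, Cma1, Tpsb2, Cpa3, Hdc and Fcer1a had reads in all 94 mature cells and all 93 BMCPs, while Kit and Ms4a2 had reads in all 94 mature cells and in 92 and 85 BMCPs. Macrophage, T cell, eosinophil, neutrophil and erythroid markers summed to between 0 and 15.9 CPM in each group. B cell markers summed to 257 CPM in mature cells and 1755 CPM in BMCPs. BMCP 46 and BMCP 80 held 63.1% and 27.3% of the BMCP reads of these markers, and their granule shares were 0.11% and 0.16%. Counted by any read, as for the mast cell markers above, Ighm appeared in 72 mature cells and 59 BMCPs, and Cd74 in 30 and 36.

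Nuclear oxidative phosphorylation genes together made up 0.92% of reads in mature cells and 1.05% in BMCPs, a small difference before TMM or ERCC scaling. Their summed level was 9220 CPM in mature cells against 10534 CPM in BMCPs, or a log2 ratio of -0.19 (95% interval -0.20 to -0.19) that was 0.06 above the median of all genes. The sign of that ratio depended on the scaling, being 0.05 with TMM and 0.72 with ERCC scaling. The 13 mitochondrially encoded genes summed to 5556 CPM in mature cells against 5567 CPM in BMCPs, or a log2 ratio of 0.00 (0.24 with TMM and 0.91 with ERCC scaling). The mitochondrial ratio minus the nuclear ratio was 0.19, a difference that no scaling of the totals can move.

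In single cells the nuclear genes took from 0.57% of reads in the lowest mature cell through a median of 0.90% to 1.47% in the highest. In BMCPs the same share ran from 0.02% through a median of 1.05% to 1.80%. The groups overlapped broadly, and 68 of 93 BMCPs lay above the mature median. The mitochondrially encoded share was 0.21% in the lowest mature cell, 0.54% at the median and 1.23% in the highest, beside 0.17%, 0.51% and 4.22% in BMCPs. The lowest nuclear share and the highest mitochondrial share among BMCPs belonged to the same well, BMCP 40. It had reads for 21 of the 93 nuclear genes, 2394 genes in all and 1.02% ERCC reads, against a BMCP median of 0.18% ERCC. BMCP 55 also stood apart, with 3.89% ERCC reads and 28 nuclear members detected. Without these 2 cells the nuclear ratio was -0.20 and the mitochondrial ratio 0.05.

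**Figure D1:**
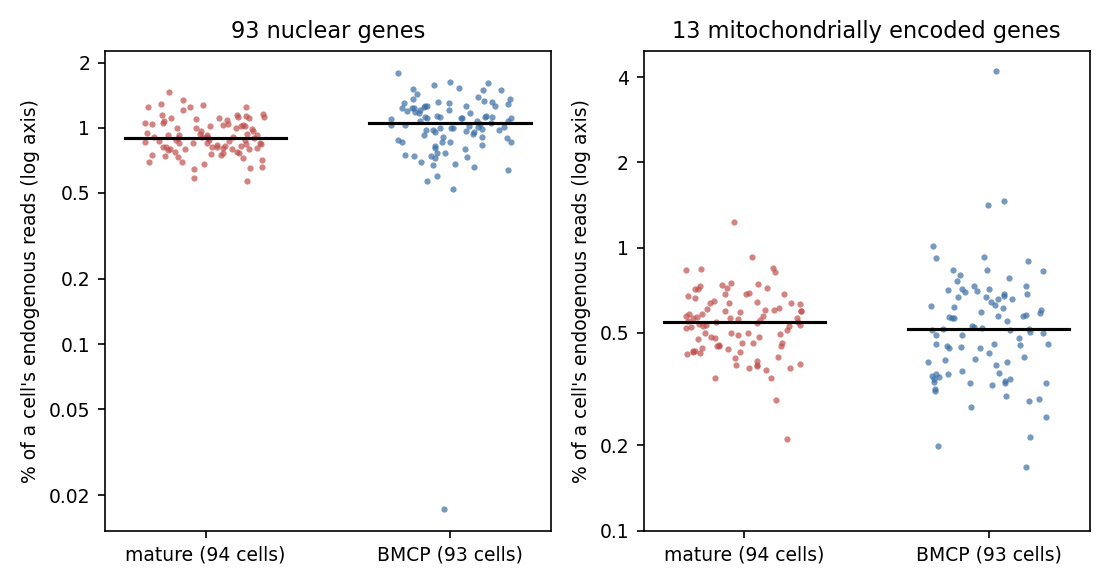
Share of each cell's endogenous reads on the 93 nuclear genes (left) and the 13 mitochondrially encoded genes (right), in percent on log axes. Each point is a cell and each bar the median of 94 mature cells (0.90% and 0.54%) or 93 BMCPs (1.05% and 0.51%); the isolated low point on the left and the top point on the right are both BMCP 40.

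Nuclear and mitochondrial shares had little relation to each other across cells. Spearman's rho was 0.06 over 94 mature cells and 0.18 over 93 BMCPs, as descriptions of cells that share mice and a read total. The nuclear share was lower in cells with more granule reads, with a rho of -0.42 in mature cells and -0.35 in BMCPs. The mitochondrially encoded share, over the same read total, had a rho with the granule share of 0.09 in mature cells and -0.27 in BMCPs. The rho of the nuclear share with reads per ERCC read, a measure of RNA content, was -0.06 in mature cells and 0.02 in BMCPs.

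Gene by gene, the pooled ratios of most nuclear members lay within a narrow range. Of 93 nuclear members, 85 reached 5 CPM in either group, and their median log2 ratio was -0.13 with a middle 50% from -0.36 to 0.05. All 10556 genes at that level had a median of -0.25 and a middle 50% from -0.79 to 0.28. Past 2-fold, 1 of 85 members was higher in mature cells, where 9.9% of all genes were, and 0 of 85 were higher in BMCPs, where 19.2% were (29.1% in either direction). With TMM scaling 1 member was higher in mature cells and 0 in BMCPs, beside 13% and 14.7% of all genes. With ERCC scaling 19 of 85 were higher in mature cells, beside 30.8% of all genes, and 0 in BMCPs, beside 8.46%. From the medians of per-cell CPM, which are near 0 for a gene found in about 50% of cells, 21 of 85 were higher in mature cells, beside 8.96% of all genes, and 0 in BMCPs, beside 1.09%. Ratios past 2-fold are rarer among abundant genes, and many members are abundant, so stricter levels were also compared. At 20 CPM, 0 of 75 members passed 2-fold, against 6.28% of genes higher in mature cells and 16.4% higher in BMCPs (22.6% in all). At 100 CPM, 0 of 37 members passed, against 3.54% and 11.7% (15.3% in all).

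**Figure D2:**
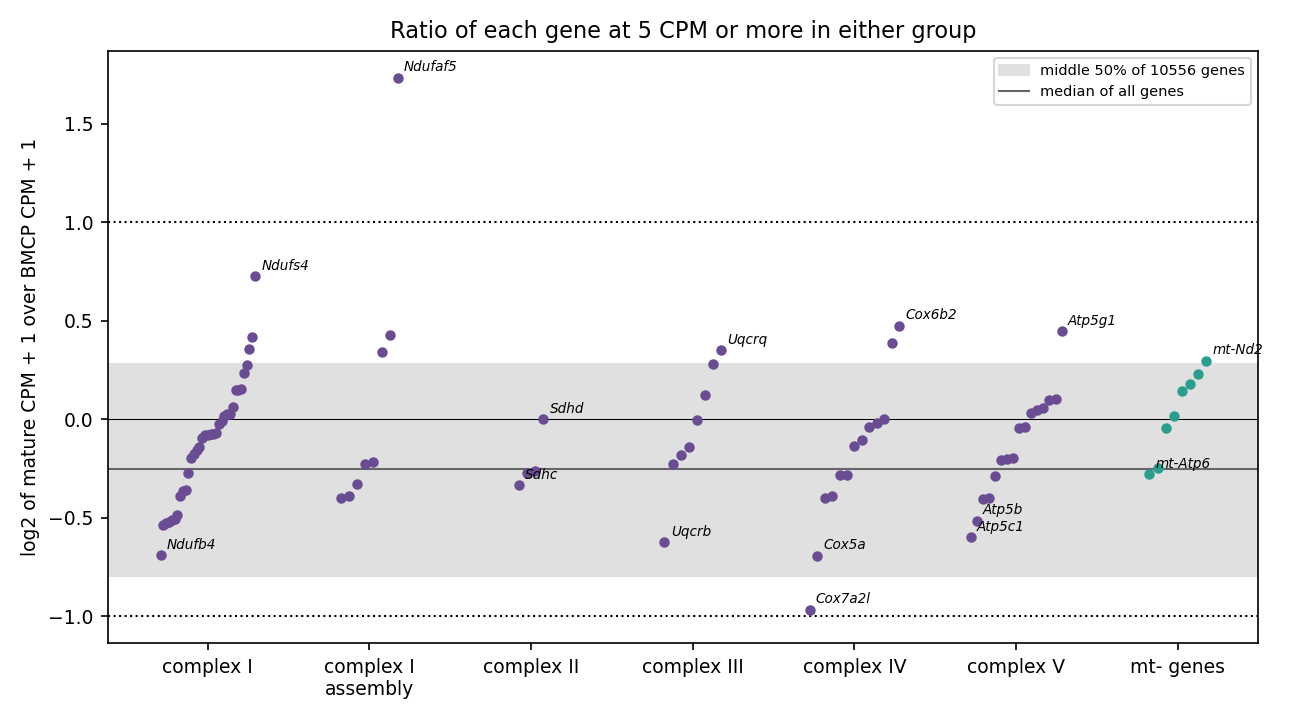
Log2 ratio of mature over BMCP level (CPM + 1) for 84 nuclear and 8 mitochondrially encoded genes at 5 CPM or more in either group, by complex. Each point is a gene; the grey band holds the middle 50% of 10556 genes (-0.79 to 0.28), the grey line is their median (-0.25) and dotted lines mark 2-fold, which Ndufaf5 passed.

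The member past 2-fold was Ndufaf5 (ENSMUSG00000027384, chromosome 2), an assembly factor that modifies a complex I subunit, and it rested on few cells. It had 8.79 CPM in mature cells (exact Poisson interval 8.26 to 9.34) and 1.94 CPM in BMCPs (1.70 to 2.21), with reads in 11 of 94 and 5 of 93 cells. The log2 ratio was 1.73, and mature cell 7 alone held 314 of the 1044 mature reads, while BMCP 81 held 206 of the 232 BMCP reads. Leaving out the top mature cell gave 1.30, and leaving out the top BMCP gave 3.00. In mature cells the other 7 Ndufaf genes ranged from 8.20 CPM (Ndufaf6) to 52.3 CPM (Ndufaf8), with log2 ratios between -0.40 and 0.43.

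Complex I, the NADH dehydrogenase, had 36 nuclear subunits, all of which reached 5 CPM. Their sum was 3146 CPM in mature cells against 3518 CPM in BMCPs, with a log2 ratio of -0.16 that became 0.09 with TMM and 0.75 with ERCC scaling. By the mean of both groups, Ndufa7 and Ndufb7, accessory subunits, had the most reads per kilobase of transcript. Ndufa7 had 208 CPM per kb in mature cells and 293 in BMCPs, and Ndufb7 had 258 and 213. Their pooled levels thus lay in opposite order between the groups. Both ratios were positive with ERCC scaling (0.42 and 1.18) and from per-cell medians (0.21 and 0.78).

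Within complex I, nuclear genes of the catalytic core had a lower pooled ratio than the accessory subunits. The core holds the flavin and iron-sulphur clusters, and 6 of its genes are described here: Ndufs1, Ndufs3, Ndufs7, Ndufs8, Ndufv1 and Ndufv2. They summed to 592 CPM in mature cells against 811 CPM in BMCPs, with a log2 ratio of -0.45, and all 6 were negative, from -0.54 (Ndufv1, which binds the flavin) to -0.36 (Ndufs8, an iron-sulphur protein). Under TMM scaling the sum was -0.21 and 6 of 6 stayed negative, whereas under ERCC scaling the sum was 0.46 and 0 of 6 were negative. From medians of per-cell CPM the direction did not hold: Ndufs8 (2.81) and Ndufv2 (0.94) were positive, Ndufs1 and Ndufv1 were 0.00, and Ndufs3 (-0.73) and Ndufs7 (-0.35) were negative. The 29 accessory subunits summed to 2436 and 2481 CPM, a log2 ratio of -0.03 (0.22 with TMM and 0.89 with ERCC scaling), with 24 of 29 above the median of all genes. This split was made after the values were seen and is a description. The share of reads on the 6 core genes had a median of 0.059% in mature cells (highest 0.211%) and 0.074% in BMCPs (highest 0.215%), so cells of the groups overlapped.

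Ndufs7, an iron-sulphur subunit near the quinone site, had the most reads of these core genes. It ranged from 0 to 999 CPM with a median of 147 in single mature cells and from 0 to 1200.1 CPM with a median of 189 in BMCPs. Its pooled levels were 185 and 263 CPM, a log2 ratio of -0.51, and the cells of the groups overlapped over almost the whole range. Ndufs4 (ENSMUSG00000021764, chromosome 13), an accessory subunit needed for stable assembly, had the highest ratio in the complex. It ranged from 0 to 557 CPM with a median of 13.9 in mature cells and from 0 to 386 CPM with a median of 0 in BMCPs. Its pooled levels were 74.4 and 44.5 CPM, a log2 ratio of 0.73. Ndufa5 (0.42) and Ndufc1 (0.36), both accessory subunits, were next on the mature side in this complex.

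Complex II, succinate dehydrogenase, links the citric acid cycle to the respiratory chain. Sdhb, the iron-sulphur subunit, had 212 CPM per kb in mature cells and 256 in BMCPs, and Sdha, the flavoprotein, had 132 and 158. Across cells Sdhb ranged from 0 to 1203 CPM (median 217) in the mature group and from 0 to 1110 CPM (median 200) in BMCPs, almost the same spread. The log2 ratios were -0.27 for Sdhb, -0.26 for Sdha, -0.33 for Sdhc and 0.00 for Sdhd, the membrane anchors. The sum of the 4 genes had a ratio of -0.24, which TMM scaling moved to 0.00 and ERCC scaling to 0.67.

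Complex III passes electrons from ubiquinol to cytochrome c, and its summed ratio before scaling was the nearest to 0 of the 5 complexes. Its 8 nuclear members under the symbol rule summed to 941 CPM in mature cells against 964 CPM in BMCPs, or a log2 ratio of -0.04 (0.21 with TMM and 0.88 with ERCC scaling). Uqcr11, a small subunit, had 240 CPM per kb in mature cells and 272 in BMCPs, and the core protein Uqcrc1 had 233 and 234. Uqcrc1 ranged from 0 to 1847 CPM (median 351) in mature cells and from 0 to 2136 CPM (median 288) in BMCPs. Uqcrb lay at -0.62 and Uqcrq at 0.35, both small subunits. Of the 50-base windows of the Uqcrb transcript, 56.6% occurred in no other annotated gene, so some of its reads cannot be placed uniquely.

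Complex IV, cytochrome c oxidase, hands electrons to oxygen, and many of its nuclear subunits exist as alternative forms from separate genes. In both groups nearly all reads came from the widely expressed forms. Cox4i1 had 289 CPM in mature cells and 317 CPM in BMCPs, while Cox4i2, known from lung, had 0 reads in both pools, which allows up to 0.0252 CPM in the mature pool. Cox6a1 had 231 and 237 CPM, while Cox6a2, the heart and muscle form, had 0.90 CPM in mature cells and 0 reads in BMCPs. The 107 reads of Cox6a2 came from 2 cells. Cox8a had 194 CPM in each group, beside 0 reads for Cox8b and 0.01 and 1.48 CPM for Cox8c. Cox7a2 had 69.9 and 91.8 CPM, beside 0 and 0.33 CPM for the muscle form Cox7a1. Cox7b had 71.5 and 72.3 CPM, beside 0 and 1.80 CPM for Cox7b2, and Ndufa4 had 139 and 169 CPM, beside 0.01 and 0 CPM for Ndufa4l2. The exception was Cox6b2, known from testis, with 9.38 CPM in mature cells and 6.47 CPM in BMCPs. Reads for it appeared in 18 of 94 and 15 of 93 cells, against 92 and 88 cells for Cox6b1, whose pooled levels were 180 and 238 CPM.

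**Figure D3:**
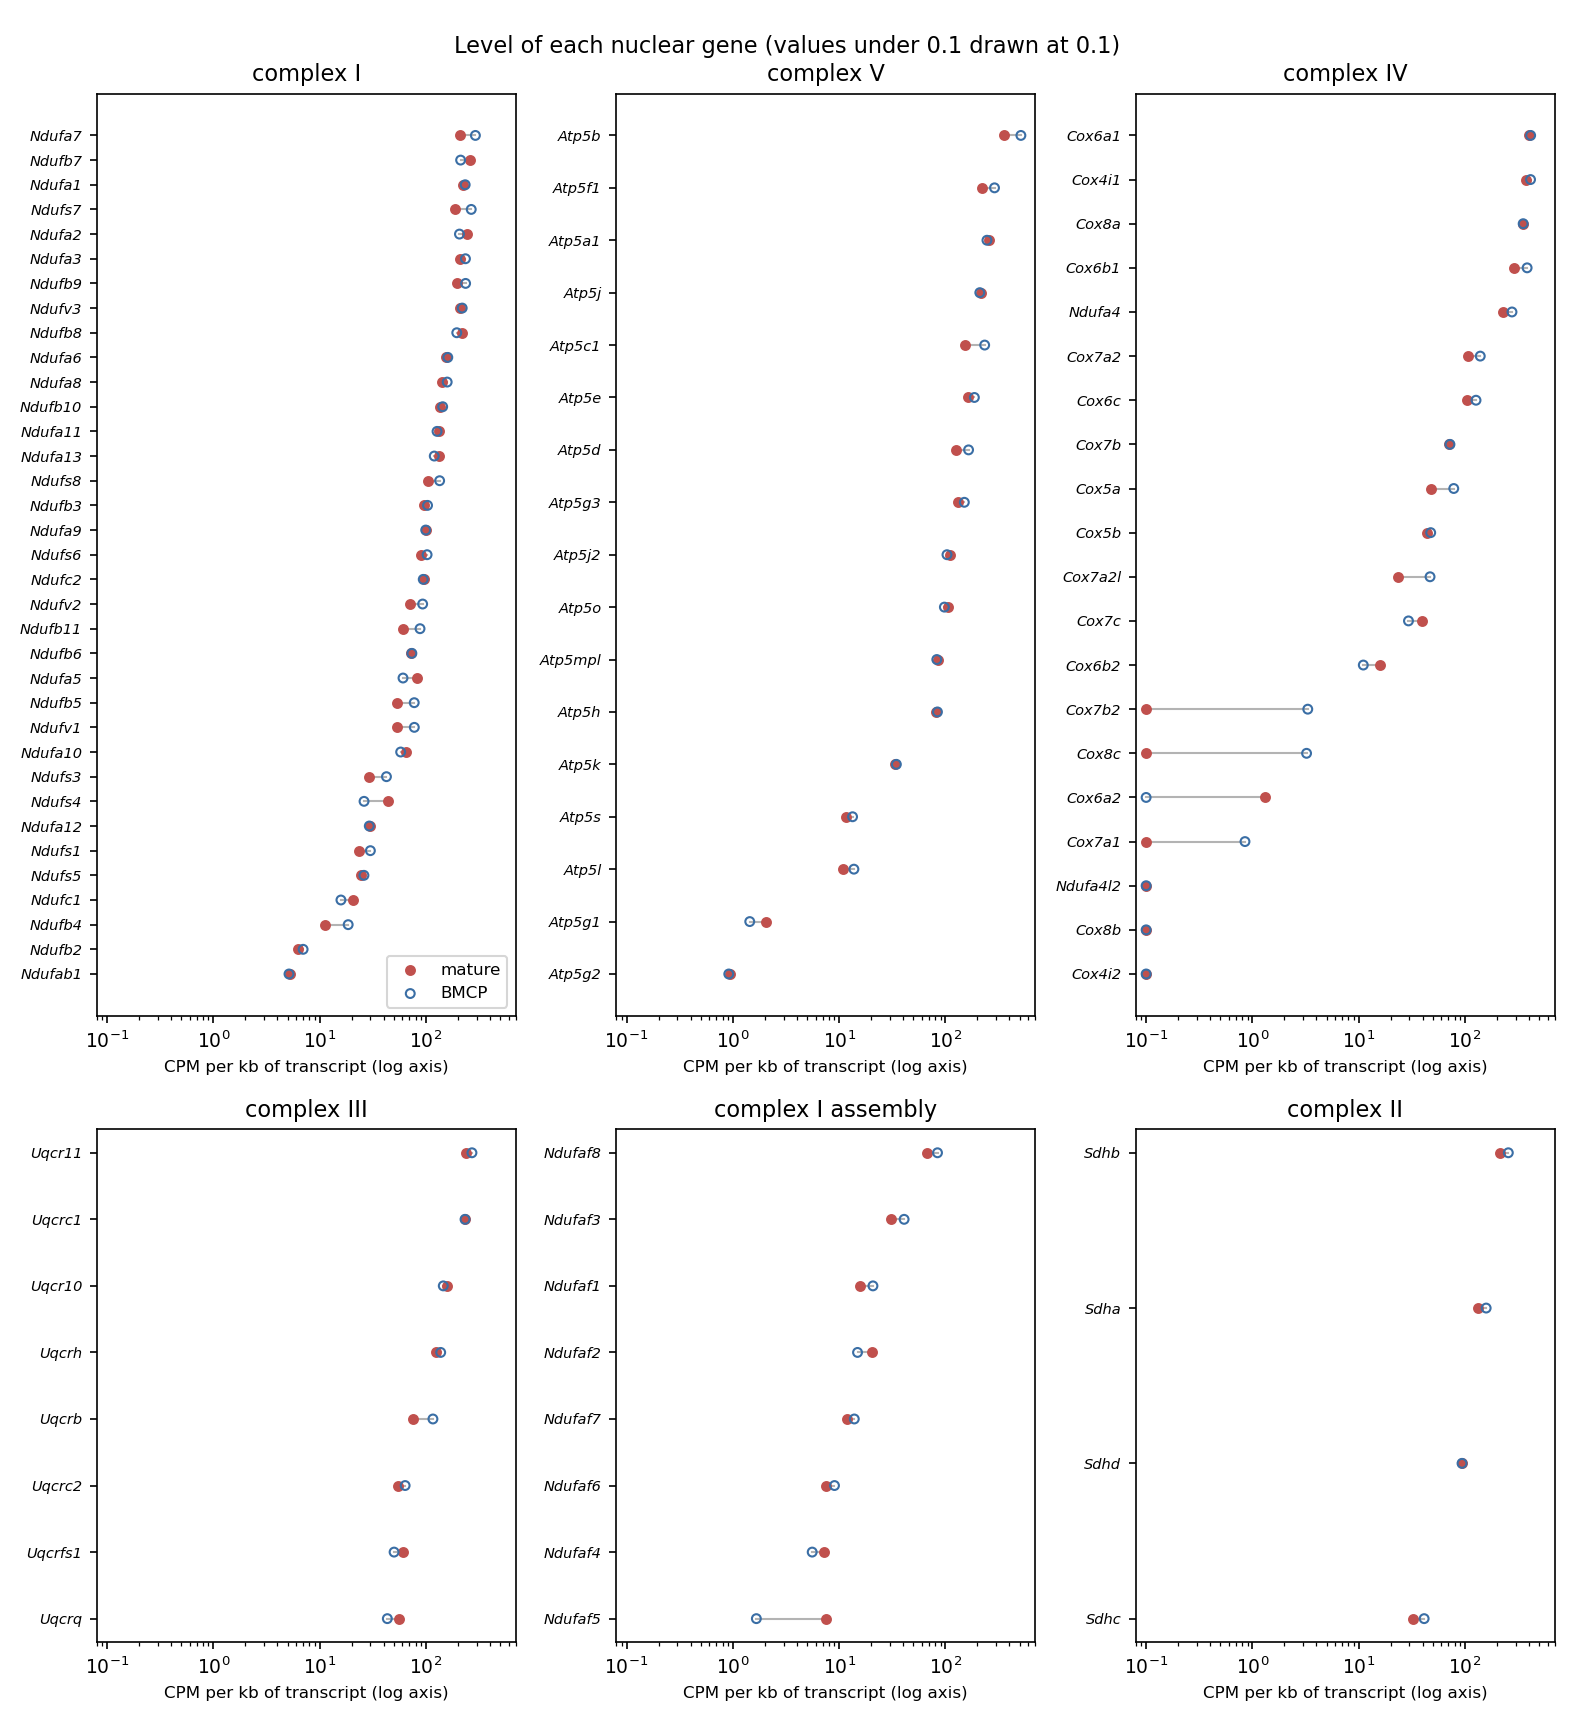
Level of each of 92 nuclear genes in CPM per kb of transcript on log axes, by complex, with mature cells as filled and BMCPs as open circles. Most pairs of circles nearly coincide. Among complex IV genes Cox6a1, Cox4i1 and Cox8a lead by the mean of both groups. The tissue-restricted forms lie at the bottom, with values under 0.1 drawn at 0.1.

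By reads per kilobase Cox6a1 (404 in mature cells, 415 in BMCPs) and Cox4i1 (377 and 414) led complex IV. Cox6a1 had a read in all 94 mature cells and in 87 of 93 BMCPs, from 0.72 to 706 CPM (median 228) and from 0 to 1030 CPM (median 195). Among genes of the complex at 5 CPM or more, the lowest ratios were those of Cox7a2l (ENSMUSG00000024248, chromosome 17), which takes part in joining complexes III and IV, and Cox5a. Cox7a2l ranged from 0 to 153 CPM (median 0.68) in mature cells and from 0 to 340 CPM (median 0.62) in BMCPs. Its pooled levels were 25.4 and 50.5 CPM, a log2 ratio of -0.97, just inside 2-fold. Cox5a had 30.95 and 50.6 CPM and a ratio of -0.69, with 67.95% of its windows its own. Its per-cell medians lay in the other order, at 16.7 CPM in mature cells and 1.06 CPM in BMCPs. On the mature side Cox7c had 21.1 and 15.9 CPM and a ratio of 0.39, with 47.1% of its windows its own. Of the 20 genes 13 reached 5 CPM, and all 20 summed to 1377 and 1581 CPM, a log2 ratio of -0.20 (0.05 with TMM and 0.71 with ERCC scaling).

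Complex V, the ATP synthase, held the nuclear member with the most reads. Atp5b (ENSMUSG00000025393, chromosome 10), the catalytic beta subunit, ranged from 0 to 2266 CPM with a median of 710 in mature cells and from 0 to 4437 CPM with a median of 869 in BMCPs. The pooled levels were 688 and 984 CPM, a log2 ratio of -0.51. Atp5a1, the alpha subunit that alternates with beta in the same head, had 634 and 608 CPM and a ratio of 0.06. The pooled ratios of these partner subunits thus differed, but with ERCC scaling both were positive, at 0.97 for Atp5a1 and 0.40 for Atp5b. From per-cell medians they were 0.04 and -0.29. Atp5c1, the central stalk, had 164 and 248 CPM and a ratio of -0.60. Atp5f1, in the peripheral stalk, had 352 and 465 CPM, a ratio of -0.40, and 6007 of its 55586 BMCP reads came from BMCP 55. Without BMCP 55 its ratio was -0.25. Of the 17 members 16 reached 5 CPM, and all 17 summed to 2702 and 3235 CPM, a log2 ratio of -0.26 (-0.01 with TMM and 0.65 with ERCC scaling).

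Subunit c, the rotor ring of the ATP synthase, is encoded by Atp5g1, Atp5g2 and Atp5g3, which give the same mature protein. Most counted reads were those of Atp5g3, with 94.4 CPM in mature cells and 109 CPM in BMCPs. Atp5g1 had 9.65 and 6.80 CPM, and Atp5g2 had 0.68 and 0.67 CPM. Only 12.6% of the 50-base windows of Atp5g2 were its own, against 88.4% for Atp5g1 and 100% for Atp5g3. The order of these genes therefore cannot be read as an order of transcript levels. Atp5l, with 15.2% own windows, had 5.95 and 7.496 CPM.

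The coding start of Atp5l (chr9:44912557-44920742, minus strand) and of the processed pseudogene Gm10221 are shown because a 50-base read within them matches both. Both stretches come from GENCODE M21 transcripts on GRCm38, and capitals mark the shared bases, here all 60.
Atp5l, coding bases 1 to 60: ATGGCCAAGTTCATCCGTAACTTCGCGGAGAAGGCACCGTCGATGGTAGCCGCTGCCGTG
Gm10221, chr5:24581803-24581862, minus strand: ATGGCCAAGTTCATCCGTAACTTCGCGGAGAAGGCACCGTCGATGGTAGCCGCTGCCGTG
Gm10221 itself had 0.06 CPM in mature cells and 0.08 CPM in BMCPs.

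Among mitochondrially encoded genes, levels differed by several orders of magnitude even though most are cut from shared precursor transcripts. Mt-Nd1, mt-Co1 and mt-Cytb, subunits of complexes I, IV and III, were the highest. Mt-Nd1 ranged from 50.7 to 3127 CPM (median 1317) in mature cells and from 2.96 to 14958 CPM (median 1119) in BMCPs, and its pooled levels were 1329 and 1205 CPM. Mt-Cytb had 1495 and 1477 CPM and mt-Co1 had 1457 and 1727 CPM. Mt-Nd2 (368 and 299 CPM), mt-Nd4 (322 and 275 CPM), mt-Nd5 (434 and 448 CPM) and mt-Nd6 (136 and 120 CPM) formed a middle group. Mt-Co2, mt-Atp6, mt-Co3 and mt-Nd3 lay between 1.48 and 5.63 CPM, and mt-Atp8 and mt-Nd4l at or under 0.18 CPM.

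The step from the middle group down to the low genes ran alongside how much of a gene's sequence is its own. The order above that step did not: mt-Co1, with 48.9% own windows, was among the highest, and mt-Nd6, with 100%, was in the middle group. Mt-Co2, mt-Co3, mt-Atp6, mt-Nd4l and mt-Nd3 had 0% to 2.01% of 50-base windows absent from every other annotated gene, because unprocessed pseudogenes on chromosome 1 (Gm28661, Gm28437, Gm10925, Gm10222 and Gm28438) carry the same sequence. Mt-Nd4 had 37.8% and mt-Co1 48.9% of windows of their own. Mt-Nd2 and mt-Nd5 had 91.8% and 92.4%, and mt-Nd1, mt-Nd6, mt-Cytb and mt-Atp8 had 100%. Among the low genes mt-Atp8 was the exception, with 0.18 and 0.10 CPM in spite of its own windows. It is the shortest of the 13 genes, at 204 bases, and overlaps mt-Atp6. Windows were compared with annotated transcripts only, and the chromosome 1 sequence between the pseudogenes of mt-Atp6 and mt-Co2 was not read. The 5 pseudogenes had 0.16 to 5.49 CPM themselves. In both groups Gm28437 and Gm10222 lay above the genes they match, as with 5.16 CPM for Gm28437 and 4.22 CPM for mt-Co3 in mature cells. Gm28661, Gm10925 and Gm28438 lay below theirs, as with 0.27 CPM for Gm28438 and 2.45 CPM for mt-Nd3. Whether shared sequence sets these levels was not tested. The count table lists 0 reads as aligned to several places in every cell, and how such reads were handled is not given in the sources used here.

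**Figure D4:**
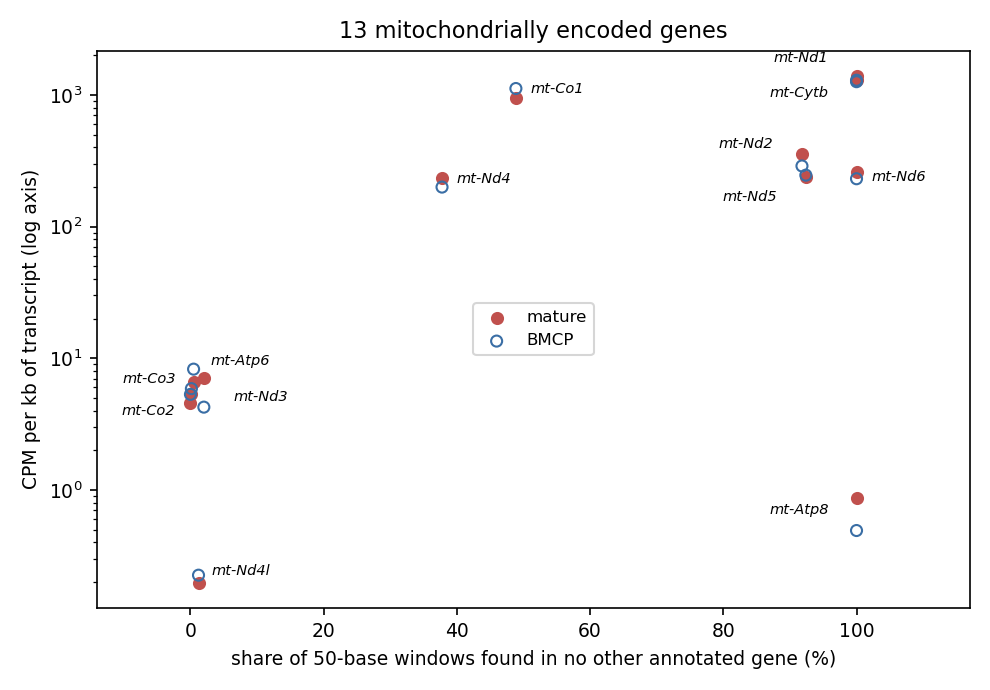
Level of the 13 mitochondrially encoded genes in CPM per kb of transcript (log axis) against the percent of their 50-base windows found in no other annotated gene, in mature cells (filled) and BMCPs (open). Genes with up to 2.01% own windows lie at the bottom left, genes with 37.8% or more lie higher, and mt-Atp8 at the bottom right is the exception.

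The following stretches show a shared gene, a gene with its own sequence and the point in mt-Co1 where its last shared run begins. All come from GENCODE M21 transcripts on GRCm38, and capitals mark bases also present in a chromosome 1 pseudogene.
mt-Co2, chrM:7325-7384, plus strand: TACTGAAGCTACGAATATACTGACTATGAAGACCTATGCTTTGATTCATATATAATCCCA
Gm28661, chr1:24615194-24615253, minus strand: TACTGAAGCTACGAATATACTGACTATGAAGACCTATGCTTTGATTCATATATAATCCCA
mt-Cytb, chrM:14687-14746, plus strand: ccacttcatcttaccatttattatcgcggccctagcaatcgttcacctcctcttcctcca
mt-Co1, chrM:6354-6453, plus strand: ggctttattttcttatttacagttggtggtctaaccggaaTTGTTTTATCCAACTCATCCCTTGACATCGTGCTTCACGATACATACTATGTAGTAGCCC
The mt-Co2 stretch is identical in Gm28661, whereas no window of mt-Cytb was shared. In mt-Co1 the capitals open a run of 479 bases, from base 1067 to the end of the gene, that Gm29216 repeats. Earlier runs of 53 to 148 bases, between base 1 and base 989, were shared with Gm13340.

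Before TMM or ERCC scaling the mitochondrially encoded genes differed little between the groups. Among the 5 genes above 5 CPM with over 90% own windows, the log2 ratios were 0.30 for mt-Nd2, 0.18 for mt-Nd6, 0.14 for mt-Nd1, 0.02 for mt-Cytb and -0.05 for mt-Nd5. Their sum was 3762 CPM in mature cells against 3550 CPM in BMCPs, or a ratio of 0.08 (0.33 with TMM and 1.00 with ERCC scaling). Mt-Nd4 lay at 0.23 and mt-Co1 at -0.25. BMCP 40 weighed on these values: it held 10709 of 144040 BMCP reads of mt-Nd1 and 10469 of 206397 of mt-Co1. Without the top BMCP their ratios were 0.24 and -0.18. The 2 mitochondrial ribosomal RNAs, which are no protein-coding genes, summed to 3184 CPM in mature cells against 3946 CPM in BMCPs. All mitochondrial genes together took 8.17% of the reads of BMCP 40, against a BMCP median of 0.88%.

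Detection gave a further view, since a level in single cells combines how many cells have reads with how many reads each has. With every cell thinned to 100000 reads, a mature cell had a median of 52.5 nuclear members with a read (range 30 to 79) and a BMCP 45 (range 5 to 71). The lowest BMCPs were BMCP 40 with 5 and BMCP 55 with 12. Of the 85 nuclear members at 5 CPM, 81 were found in a larger share of mature cells, by a median of 9.04 percentage points. Over all 10556 genes, 68.8% were found in a larger share of mature cells, by a median of 3.17 points. Median shares were 65.96% of mature cells and 50.54% of BMCPs for the members, against 19.15% and 15.05% for all genes. From such unlike shares the point differences cannot be compared directly, and detection was not compared with genes of similar level. Mature cells also had more genes of any kind after thinning, with a median of 2896 against 2471. In the reverse sense, 80 of 85 members had more reads per positive cell in BMCPs, as did 85.2% of the genes with positive cells in both groups.

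The shares are given with exact Clopper-Pearson intervals, which cover the counting of cells within each pool only. Ndufa13, a complex I accessory subunit, had a read in 91.5% of mature cells (83.9% to 96.3%) and 70.97% of BMCPs (60.6% to 79.9%). Atp5g1 had one in 44.7% (34.4% to 55.3%) and 23.7% (15.5% to 33.6%). Among the other nuclear members with the largest differences, Ndufv3 had one in 75.5% and 53.8%, and Uqcrq in 61.7% and 40.9%. These genes were chosen after their values were seen. In the opposite direction Atp5l was found in 29.8% of mature cells (20.8% to 40.1%) and 44.1% of BMCPs (33.8% to 54.8%). No cell type that should lack these genes was present to give a background share.

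**Figure D5:**
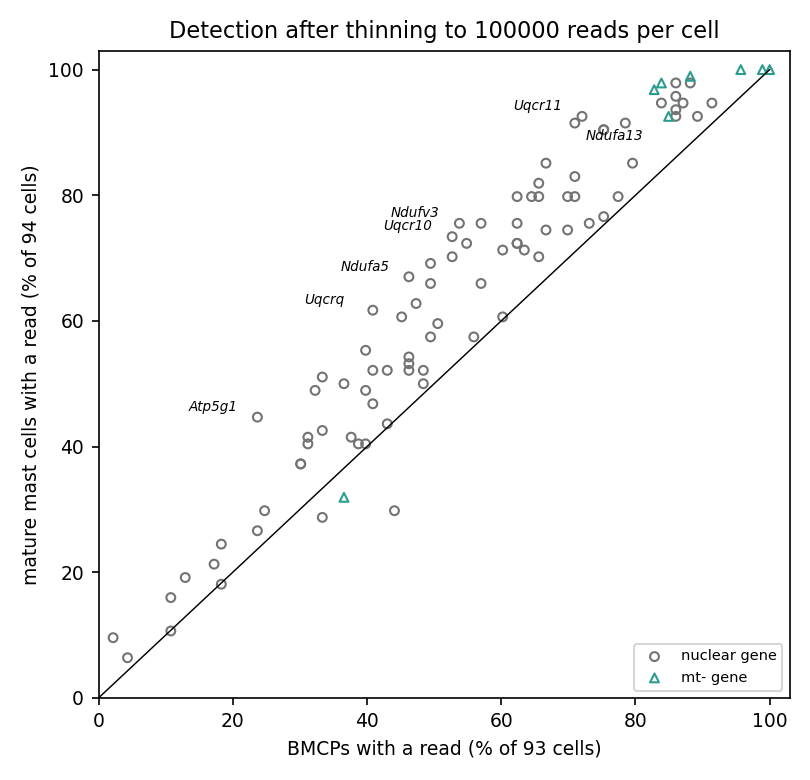
Percent of 94 mature cells against percent of 93 BMCPs with a read after thinning to 100000 reads per cell, for members at 5 CPM or more (circles nuclear, triangles mitochondrially encoded). Points above the diagonal were found in more mature cells, 81 of 85 nuclear members, and labels name the 7 nuclear members with the largest differences.

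Promoters of nuclear members were compared because NRF1, ETS family factors such as GABP, and YY1 are known regulators of respiratory genes. RefSeq windows (GRCm38.p6) from 250 bases before to 50 after the start matched 76 of the 93 nuclear members. The NRF1 motif GCGCATGC, read on both strands, lay in 12 of 76 (15.8%) against 3.05% of 27025 genes and 3.94% of protein-coding genes. The ETS motif CCGGAAGT lay in 5 (6.58%) against 4.31% and 5.69%, so its share was near that of protein-coding genes. The YY1 motif AAGATGGC lay in 11 (14.5%) against 3.19% and 3.57%. Any of the motifs lay in 27 (35.5%) against 9.91%, or 12.3% of protein-coding genes. A match is a string of letters and no measured site.

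The upstream parts of 4 of these windows follow, chosen to show each motif in a gene described above. Capitals mark the motif, and where matches on both strands overlap the capitals cover both.
Cox6a1, NRF1, chr5:115348959-115349208, minus strand: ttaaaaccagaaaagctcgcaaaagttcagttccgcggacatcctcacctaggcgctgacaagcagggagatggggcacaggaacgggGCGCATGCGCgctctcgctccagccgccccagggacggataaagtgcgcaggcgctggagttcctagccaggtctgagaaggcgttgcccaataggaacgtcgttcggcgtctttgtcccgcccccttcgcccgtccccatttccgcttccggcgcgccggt
Sdhb, NRF1, chr4:140961021-140961270, plus strand: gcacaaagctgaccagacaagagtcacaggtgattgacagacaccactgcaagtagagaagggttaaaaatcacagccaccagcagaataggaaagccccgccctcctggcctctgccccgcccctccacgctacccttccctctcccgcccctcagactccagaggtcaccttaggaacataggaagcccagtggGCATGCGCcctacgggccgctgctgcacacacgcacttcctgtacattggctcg
Uqcr11, ETS, chr10:80406822-80407071, minus strand: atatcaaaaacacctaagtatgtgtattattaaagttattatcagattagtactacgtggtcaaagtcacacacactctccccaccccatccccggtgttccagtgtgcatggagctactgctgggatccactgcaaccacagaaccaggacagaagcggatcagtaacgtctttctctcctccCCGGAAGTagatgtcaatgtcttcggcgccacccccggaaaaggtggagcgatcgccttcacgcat
Atp5j, YY1, chr16:84834977-84835226, minus strand: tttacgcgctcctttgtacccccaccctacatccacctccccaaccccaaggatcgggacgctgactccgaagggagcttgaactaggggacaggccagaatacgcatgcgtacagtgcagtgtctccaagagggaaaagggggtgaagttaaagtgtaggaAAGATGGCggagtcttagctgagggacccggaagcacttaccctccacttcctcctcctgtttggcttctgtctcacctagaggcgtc
The marked motifs lay 54, 66 and 88 bases before the RefSeq starts of Sdhb, Uqcr11 and Atp5j. Uqcr11 also counted among the genes with an NRF1 match, which is not wholly within the stretch shown. Starts differ between annotations: in GENCODE M21 Sdhb begins at base 140961203, inside the stretch shown. Atp5j, a peripheral stalk subunit, had 176 CPM in mature cells and 171 CPM in BMCPs, and its window lies inside the annotated gene Gabpa, which encodes an ETS factor.

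Most regulators were found in few cells, and most calls among them were lost when 1 cell was left out. Of 16 genes listed as regulators of mitochondrial transcription and biogenesis, 15 reached 5 CPM, and 8 of 15 were past 2-fold higher in BMCPs, beside 19.2% of all genes, and 1 higher in mature cells, beside 9.9%. Their median log2 ratio was -1.06 (-0.82 with TMM and -0.17 with ERCC scaling) where all genes had -0.25. With TMM scaling 4 were past 2-fold higher in BMCPs and 1 in mature cells, and with ERCC scaling 2 and 4, beside all-gene shares of 14.7% and 13% with TMM and 8.46% and 30.8% with ERCC scaling. Nrf1 had 38.2 CPM in mature cells and 98.1 CPM in BMCPs with reads in 27 cells of each group, a ratio of -1.34. Tfam, which packages mitochondrial DNA, had 29.4 and 62.4 CPM in 16 and 29 cells, a ratio of -1.06. Polrmt, the mitochondrial RNA polymerase, had 27.4 and 60.9 CPM in 16 and 25 cells, a ratio of -1.13. Polg, the mitochondrial DNA polymerase, had 120 and 83.4 CPM in 61 and 47 cells, a ratio of 0.52. Leaving out, for each gene, the BMCP with the most reads, a check chosen after seeing the data, took the count of 8 to 2, Nrf1 (-1.03) and Tfb2m (-1.34). No share of all genes after the same step is given here, so the loss cannot be read as particular to regulators. Tfam (-0.74), Polrmt (-0.73), Twnk (-0.66), Gabpa (-0.64), Lrpprc (-0.10) and Ppargc1a (0.00) then lay inside 2-fold. The coactivator Ppargc1a had 1 read in mature cells and 661 reads in 2 BMCPs.

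Among genes next to the complexes, citric acid cycle genes and a mixed list that held cytochrome c had median ratios near 0 before scaling. Further assembly factors lay near the median of all genes. The 12 genes of the mixed list were Cycs, Cyc1, Etfa, Etfb, Etfdh, Slc25a3, Slc25a4, Slc25a5, Vdac1, Vdac2, Vdac3 and Ucp2. Of these, 11 reached 5 CPM, with 1 past 2-fold higher in BMCPs (19.2% of all genes) and 0 in mature cells (9.9%). Their median ratio was 0.00 (0.24 with TMM and 0.91 with ERCC scaling). The uncoupling protein Ucp2 had 1215 and 1282 CPM, the electron transfer flavoprotein subunit Etfb 471 and 472 CPM, and the phosphate carrier Slc25a3 269 and 249 CPM. Cycs, cytochrome c itself, had 0.99 and 2.63 CPM, and its windows were not compared. Of 31 further assembly factors, 30 reached 5 CPM, with 3 past 2-fold in each direction, beside 9.9% of all genes higher in mature cells and 19.2% in BMCPs, and a median of -0.22 (0.01 with TMM and 0.63 with ERCC scaling). Of 17 citric acid cycle genes, all reached 5 CPM, 1 was past 2-fold higher in mature cells (Suclg2, 15.4 and 6.63 CPM) and 0 in BMCPs, beside the same shares of all genes, and the median was -0.03 (0.22 with TMM and 0.88 with ERCC scaling). Idh3g, an isocitrate dehydrogenase subunit, had 261 and 339 CPM.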

How the data were processed

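RNA of 189 single peritoneal cells was measured, 94 labelled mature and 95 labelled BMCP, and the labels name 4 mice without tying cells to them. The deposited values were raw read counts per gene, made by the authors with no normalization. Per the submitters' processing notes, the tools were GSNAP 2015-09-29 and HTSeq 0.5.3p3 with build mm10. The annotation release and use of strand are not given in the sources used here. Per the labels' protocols, reads were 50 bp single-end from cDNA amplified by 23 PCR cycles, without molecular identifiers, so PCR copies count as reads. In the pooled cells, 12.5% (mature) and 16.2% (BMCP) of the table's reads had no feature, and totals hold gene rows only, without ERCC or summary lines.

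Cells with at least 100000 endogenous reads were kept and reads were summed per group. CPM, exact Poisson and Clopper-Pearson 95% intervals and ratios with a pseudocount of 1 CPM were computed with Python 3.11.15, numpy 2.4.6, pandas 2.3.3 and scipy 1.17.1, and TMM factors with edgeR 4.0.16. The limit for a count of 0 was 3 reads. Intervals cover counting error only. Scripts were tested on simulated data. Symbols, transcripts and coordinates came from GENCODE M21 (GRCm38), which named 45229 of 46078 rows; 1 annotated member was not a row. Reads per kilobase used the principal transcript, and each of its 50-base windows was searched in all annotated transcripts, on both strands. No doublet caller was run, as wells received single sorted cells.

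A rule for genes to be named took all mitochondrially encoded genes and the 2 nuclear members of each complex with the most reads per kilobase. It also took the 5 largest ratios in each direction at 20 CPM with a read in 50% of cells. All alternative subunits, all regulators and the 3 genes with the most reads of other lists were added. The regulators Pprc1, Ppargc1b, Gabpb1, Esrra, Yy1, Tfb1m and Slirp, and several genes of other lists, fell under this rule but are not described by themselves. Other genes were named after their values were seen. The counts and sums over all nuclear members include 1 gene that is not reported here by itself or drawn in the plots of levels and ratios. The members and lists were chosen with earlier results of these data known. Alternatives changed totals, scaling, averaging, cell filters, minimum level and pseudocount.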

Additional observations from a re-analysis of the deposited data

How the results depend on the processing

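The nuclear summed log2 ratio (-0.19) was 0.012 with totals without granule genes, 0.054 with TMM and 0.72 with ERCC scaling, and -0.23 from per-cell medians. The mitochondrially encoded sum (0.00) was 0.20, 0.24, 0.91 and 0.082 in the same order, and -0.069 as a mean over cells. The nuclear median (-0.13) was 0.069, 0.11, 0.78 and 0.17. The count past 2-fold (1, beside 29.1% of all genes) was 19 with ERCC scaling (40.2%), 21 from per-cell medians (10.1%), 0 at 20 CPM (22.6%) or with a pseudocount of 5 CPM (20.9%), and 3 with any read (20.0%). The mitochondrial minus nuclear ratio (0.19) was 0.12 as a mean over cells and 0.31 from per-cell medians. Leaving out each cell in turn gave -0.20 to -0.18 for the nuclear sum, -0.019 to 0.0555 for the mitochondrial sum, 1 to 2 past 2-fold and 0.16 to 0.26 for the difference. The difference in nuclear members found per cell (7.5) was 5.0 when 5 reads were required.

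Further alternatives were chosen after seeing the data. Without BMCP 46 and BMCP 80 the nuclear and mitochondrial sums were -0.18 and 0.020, and without BMCP 40 and BMCP 55 they were -0.20 and 0.048 with a difference of 0.25. Without BMCP 40 alone the mitochondrial sum was 0.0555 and the difference 0.26. Members with 90% own windows gave -0.20 and 0.084. Cells numbered up to 47 gave a nuclear sum of -0.16, a nuclear median of -0.032, a mitochondrial sum of -0.036 and 4 past 2-fold (40.7% of all genes). Cells numbered above 47 gave a nuclear sum of -0.22, a mitochondrial sum of 0.020, 2 past 2-fold (39.9%) and 4.0 more members found per mature cell. The labels tie no number to a plate. Beyond what the construction of an alternative shows, the cause was not tested. Low members rest on few cells, and shared sequence limits any level among members with few own windows.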

Other observations

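The counts here stand beside 9.9% of all genes past 2-fold higher in mature cells and 19.2% higher in BMCPs. Of 21 glycolysis genes and their transporters, 19 reached 5 CPM, with 3 past 2-fold higher in BMCPs, 1 higher in mature cells and a median log2 ratio of -0.52 (-0.27 with TMM and 0.40 with ERCC scaling). The lactate dehydrogenase Ldha had 1408 CPM in mature cells and 1422 CPM in BMCPs, Aldoa 535 and 766 CPM, and hexokinase Hk1 292 and 266 CPM. The phosphofructokinase forms lay in opposite order: Pfkm had 63.98 and 6.23 CPM with reads in 33 of 94 and 13 of 93 cells, whereas Pfkp had 214 and 336 CPM in 71 and 72 cells. The aldolase Aldoc had 2.79 and 48.1 CPM in 11 and 9 cells. Pfkm, Pfkp and Aldoc were picked after their values were seen.

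Of 78 mitochondrial ribosomal protein genes, 75 reached 5 CPM. Past 2-fold, 2 were higher in mature cells (9.9% of all genes) and 7 in BMCPs (19.2%). Their median was -0.18 (0.06 with TMM and 0.71 with ERCC scaling). Of 16 import genes and chaperones, 14 reached 5 CPM. Past 2-fold, 1 was higher in mature cells and 2 in BMCPs, beside the same shares of all genes. Their median was -0.32 (-0.09 with TMM and 0.53 with ERCC scaling). None of 7 mitochondrial antioxidant genes, including the peroxidase Gpx1 at 1137 and 1262 CPM, passed 2-fold (29.1% of all genes did), and their median was -0.15 (0.10 with TMM and 0.76 with ERCC scaling). No test was made of any of these values.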
